A study of Mus musculus with 238 samples.

Results

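In the brains of aged control mice, libraries labelled corpus callosum were set against libraries labelled motor cortex of the same animals, gene by gene. The callosal label names a white matter tract. As given below, these libraries also held striatal, cortical, ependymal and plexus transcripts, so the contrast is not one of pure white and grey matter. Only control animals were used, so that neither intervention of the series entered, and the members were all control libraries of mice that had both regions, which gave 12 of the 238 libraries. The animals were C57BL/6JN mice of 19 months. There were 3 females fed freely (AL; mice 63, 66 and 69) and 3 males injected with saline behind the eye (PBS; mice 76, 80 and 84), and each animal gave 1 library of each region. Sex, experiment and control treatment change together between these groups and cannot be told apart. Motor cortex libraries of AL mouse 68 and PBS mouse 72 have no callosal partner here and entered only an alternative fit. The labels name no transgene or other allele and do not say how the callosum was dissected or whether tissue was pooled.

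The corpus callosum is the largest commissure of the mammalian brain, a sheet of axons between the hemispheres that is rich in oligodendrocytes, the cells that wrap axons in myelin, and in fibrous astrocytes. Motor cortex holds the cell bodies, dendrites and synapses of excitatory and inhibitory neurons in layers above that sheet. The callosum borders the caudate putamen and the lateral ventricle, whose wall carries ependymal cells and the subventricular zone and whose lumen holds the choroid plexus, and white matter is known for a gain of reactive glia with age.

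The callosal libraries held between 3.6 and 18.1 M counts each (M, mega) and the paired cortical libraries between 4.65 and 13.6 M, and the mean paired difference of -0.538 M had p = 0.8438 in an exact permutation test of the 6 paired differences (two-sided; the smallest p this test can give is 0.03125). Mitochondrially encoded genes took 2.32% ± 0.233 (SD, n = 6) of the counts in callosum and 2.39% ± 0.14 in cortex, with an exact permutation p of 0.4375. The number of genes with a count was 15755 ± 777.18 and 15465 ± 568.87 (exact permutation p = 0.2812). None of these 3 differences passed, with adjusted p values from 0.6562 to 0.8438.

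The callosal label was first checked against marker genes of myelin and of the tissues that border the callosum. Myelin genes were high in every callosal library, as described below. Ttr, the transthyretin gene that choroid plexus epithelium expresses at very high level, measured 34.6, 10400 and 1050 CPM in callosum of AL mice 63, 66 and 69, and 17300, 12500 and 4690 CPM in PBS mice 76, 80 and 84 (CPM, counts divided by the TMM-scaled library total in M). In motor cortex Ttr did not exceed 0.735 CPM. The callosal libraries therefore differed among themselves by more than 2 orders of magnitude in this gene, with AL 63 lowest. The 22 genes of the choroid plexus list summed to between 721.7 and 32910 CPM in callosum (median 14840), against 332.9 to 431.3 CPM in motor cortex, on a scale computed over the 15 brain regions. Kl and Folr1, a pair of further plexus markers, reached 481 and 185 CPM in callosum at most and stood at 1.41 CPM each in AL 63.

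The striatal neuron list, with the dopamine receptors Drd1 and Drd2 among its genes, summed to 3781 to 10460 CPM in callosum, 220.4 to 261.5 CPM in motor cortex and 8001 to 13850 CPM in caudate putamen. Callosal and cortical libraries did not overlap in this sum, and unlike the plexus genes it was high in AL 63 too, where the median striatal gene stood at 47.08% of its level in the caudate putamen library of the same mouse. That share was 56.97% and 96.84% in AL 66 and AL 69, and 50.37%, 53.26% and 69.62% in PBS 76, PBS 80 and PBS 84, while in motor cortex it lay between 1.296% and 2.481%. Genes of motile cilia that mark ependymal cells summed to 89.92 to 323.1 CPM in callosum and 17.67 to 22.29 CPM in motor cortex, against 256.2 to 433.9 CPM in SVZ. Genes of cortical excitatory neurons stood in callosum at a median of 20.09% (AL 69) to 53.53% (AL 63) of the cortical level. The part of striatal, ependymal, plexus and cortical RNA in any single difference reported below was not tested. A gene was marked for choroid plexus, caudate putamen or SVZ where its mean in those libraries was at least 10 CPM and at least 5 times the median of 12 other regions, and a mark is named beside the genes of neuronal and glial lists that carry one.

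**Figure D1:**
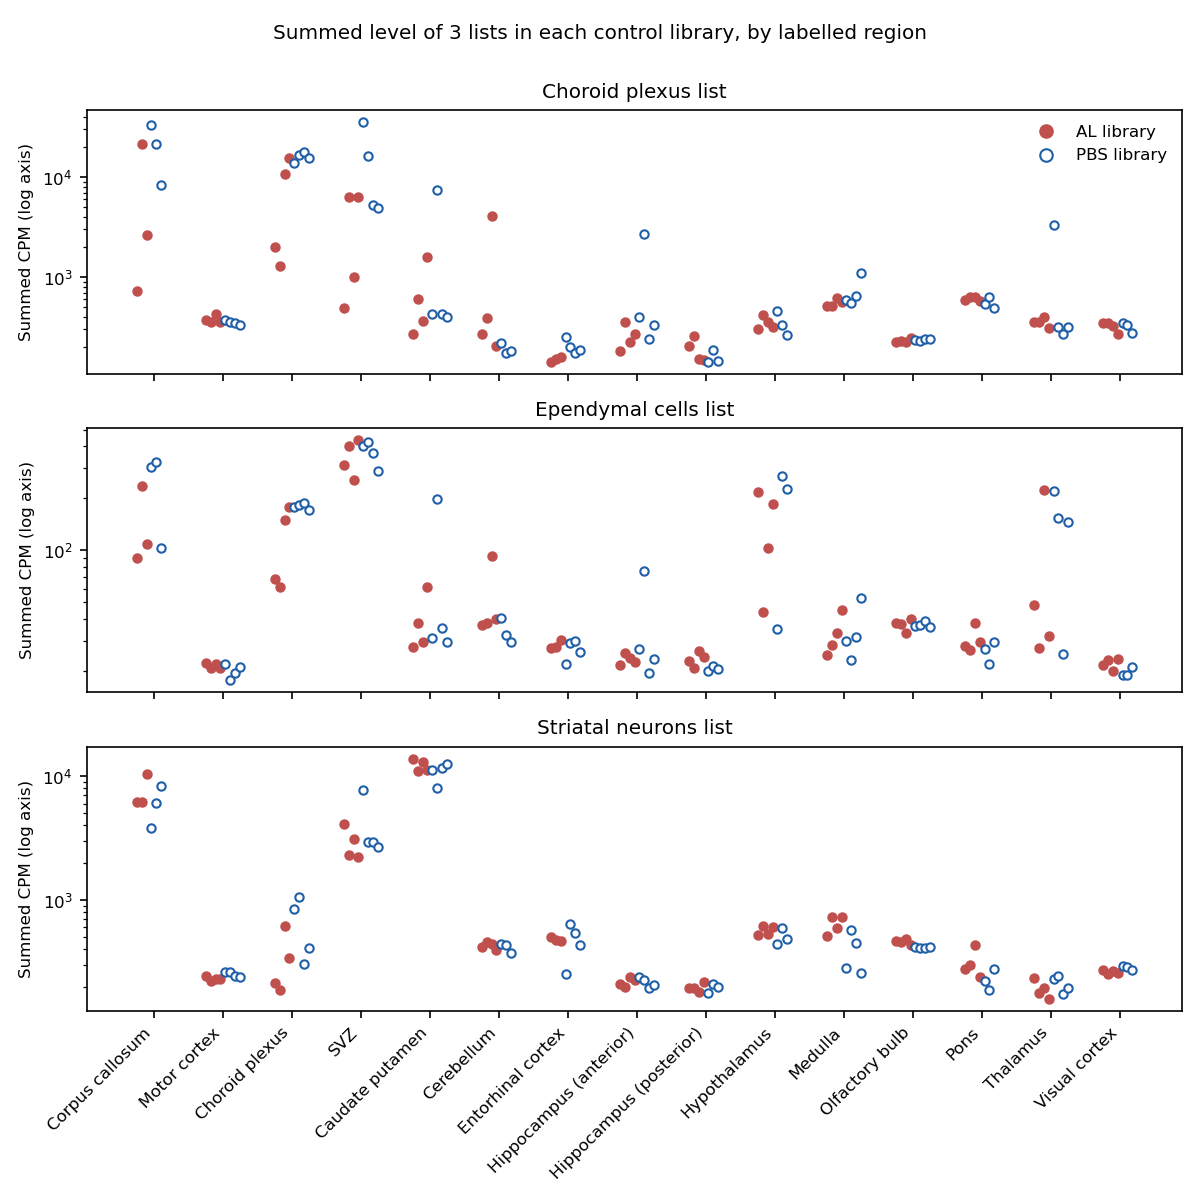
Summed CPM (log axis) of the choroid plexus, ependymal and striatal gene lists in each control library of 15 labelled brain regions; each point is a library, filled for AL and open for PBS. Corpus callosum spans 721.7 to 32910 CPM for the plexus list, and all its libraries lie above all motor cortex libraries for the 3 lists.

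Of the 21076 genes in the table, 13199 passed the filter on low counts. With the animal as a block, 4070 genes (30.8% of those tested) were higher in corpus callosum and 4143 (31.4%) were lower at an adjusted p under 0.05 (edgeR quasi-likelihood test, Benjamini-Hochberg), which is 62.2% of all genes tested. The median log2 difference over all genes was 0.002. A second rule asked for a difference beyond 2-fold (edgeR glmTreat, adjusted p under 0.05) and called 676 genes higher (5.12%) and 470 lower (3.56%), 8.68% in all. Of the 676, 663 were higher in each of the 6 mice, and all 470 were lower in each. Counts for gene groups below are read against these shares. The share of all tested genes without overlap between the regions was not counted, so statements on overlap only describe the genes named.

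**Figure D2:**
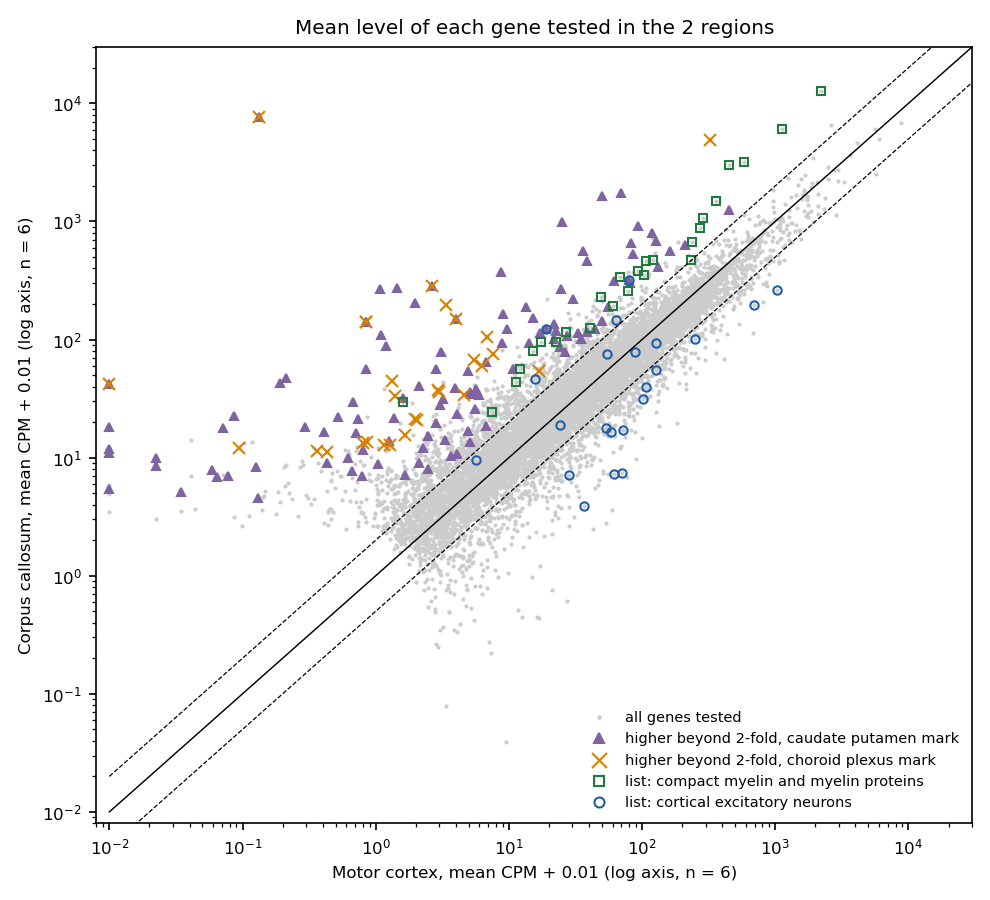
Mean level of each tested gene in motor cortex (horizontal) and corpus callosum (vertical), both as CPM + 0.01 on log axes over 6 mice; the solid line is equality and the dashed lines are 2-fold. Myelin genes (squares) lie above the upper dashed line with Sept4 nearest to it, and most excitatory neuron genes (circles) lie below equality.

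Myelin genes were the most abundant transcripts that differed. All 26 tested members of the list of compact myelin and myelin proteins were higher in callosum (30.8% of all genes were), and 25 of them beyond 2-fold (5.12% of all genes), with a median log2 difference of 2.06 that ranged from 1.56 to 2.61 over the mice. In a bulk library, more cells of a type and more RNA per cell cannot be told apart. The promoter sequences of the 4 members with the largest difference that are in the RefSeq promoter table (build GRCm38.p6) are shown because these genes move together and SOX10 is known to act on myelin genes. Trf and Mbp have no entry there. The bases from 250 to 51 before the transcription start are given 5′ to 3′ on the gene's strand, with both SOX-type motifs searched (ACAAAG and AACAAT, either strand) in capitals.
Klk6 (chr7:43824294-43824493, plus strand): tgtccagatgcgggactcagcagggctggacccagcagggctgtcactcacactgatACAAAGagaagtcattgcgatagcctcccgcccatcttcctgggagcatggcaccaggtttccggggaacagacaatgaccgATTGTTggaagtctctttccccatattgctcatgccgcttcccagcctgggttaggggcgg
Mobp (chr9:120149492-120149691, plus strand): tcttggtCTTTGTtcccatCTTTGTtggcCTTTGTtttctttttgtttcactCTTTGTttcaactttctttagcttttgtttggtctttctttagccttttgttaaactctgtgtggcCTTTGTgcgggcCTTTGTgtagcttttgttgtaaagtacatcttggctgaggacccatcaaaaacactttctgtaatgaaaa
Anln (chr9:22389257-22389456, minus strand): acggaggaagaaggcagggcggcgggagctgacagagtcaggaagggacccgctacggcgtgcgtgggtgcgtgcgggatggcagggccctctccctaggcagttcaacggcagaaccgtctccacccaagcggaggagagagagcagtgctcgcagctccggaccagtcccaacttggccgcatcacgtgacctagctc
Gjb1 (chrX:101376126-101376325, plus strand): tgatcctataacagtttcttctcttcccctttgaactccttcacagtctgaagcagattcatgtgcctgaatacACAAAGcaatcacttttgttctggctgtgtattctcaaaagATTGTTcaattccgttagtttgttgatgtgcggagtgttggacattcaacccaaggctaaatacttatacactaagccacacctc
The Klk6 and Gjb1 windows hold 1 match of each motif, the Mobp window holds 6 of ACAAAG, all on the opposite strand, and the Anln window holds neither. Over the promoter table, 13.7% of 27025 windows of the same 200 bases hold ACAAAG, 8.14% hold AACAAT and 20.6% hold either. Of the 26 list members, 19 are in the table, and 7 of these (36.8%) hold either motif, 6 of them ACAAAG and 3 AACAAT. The E-box CAGCTG was in 1 of the 19 (5.26%, against 10.2% of all windows) and TATAAA in none (9.4% of all windows). A match describes letters in the window and is not evidence of a bound site.

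Mbp, which encodes myelin basic protein, ranged from 10130 to 16980 CPM in callosum (median 12270) and from 1464 to 2860 CPM in motor cortex (median 2139), a 5.82-fold difference (log2 2.54 ± 0.16 SE, adjusted p = 1.389e-06). Mobp, which encodes a basic protein of oligodendrocyte myelin, ranged from 2665 to 4190 CPM against 383.9 to 783.8 CPM (5.65-fold). The lowest callosal library exceeded the highest cortical library for both. Klk6, a secreted protease of oligodendrocytes, had the largest difference of the list: 24.63 to 35.15 CPM against 0.4941 to 3.516 CPM (19-fold, log2 4.25 ± 0.32 SE). Trf, the transferrin gene that oligodendrocytes express, came next (log2 2.74), and Mobp (2.5), Anln (2.49) and the connexin gene Gjb1 (2.42) were close to Mbp. Opalin, Mal, Cnp, Cldn11, Cryab and Tspan2 were higher in corpus callosum than in any other of the 15 brain regions. Of the 26, 24 had callosum among their first 3 regions, and medulla was the highest for Mbp, Mog, Mag and Mobp. Caudate putamen, which borders the callosum, was not far below it. On the scale of the 15 regions, Mbp averaged 10900 CPM there against 13200 CPM in callosum. Mobp averaged 2860 against 3350 CPM, and Cnp 1440 against 1540 CPM. Sept4 was the member called higher (log2 1.01 ± 0.08 SE) without passing the 2-fold rule.

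**Figure D3:**
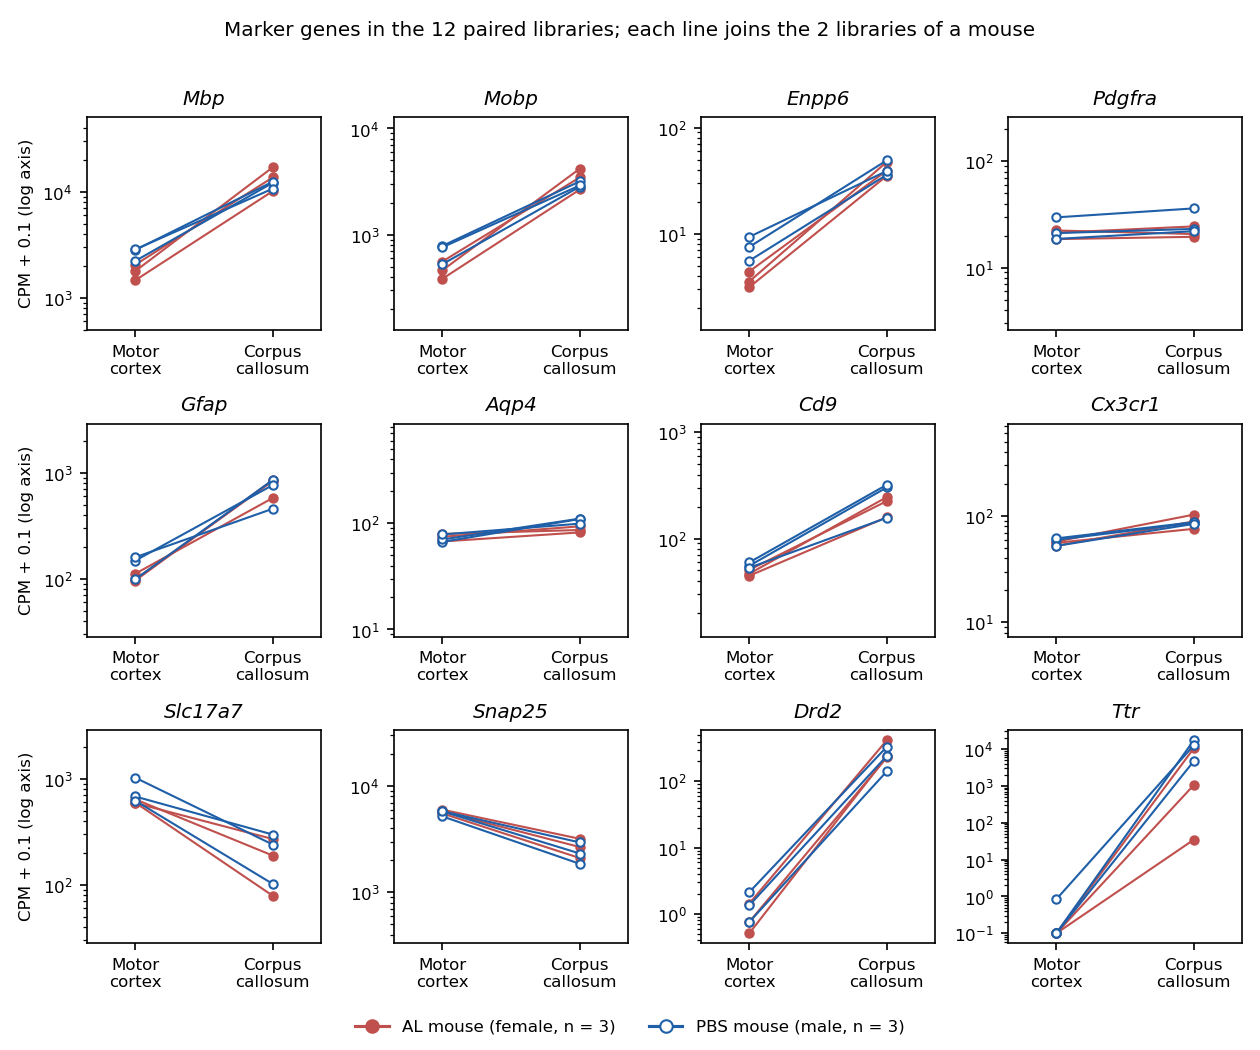
CPM + 0.1 (log axis) of 12 marker genes in motor cortex and corpus callosum, each line joining the 2 libraries of a mouse (filled AL, open PBS). Mbp, Mobp and Enpp6 rise and Slc17a7 and Snap25 fall in each of the 6 mice, Pdgfra stays near its cortical level, and Ttr in callosum spans 34.6 to 17300 CPM.

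Enzymes that make the lipids of the myelin sheath were higher as well, while those of cholesterol synthesis were not. Of 12 myelin lipid enzymes, 11 were higher and 9 of them beyond 2-fold (median log2 1.49). They included Ugt8a, which makes galactosylceramide (161.3 to 245.2 against 36.68 to 63.28 CPM, log2 2.10), Fa2h, the fatty acid 2-hydroxylase (log2 2.18), the elongase gene Elovl7 (log2 2.36) and Aspa, the aspartoacylase of oligodendrocytes (log2 1.80). Acsbg1, an acyl-CoA synthetase gene, was the member that did not pass (log2 -0.09 ± 0.06 SE, adjusted p = 0.1753). Cholesterol is a main component of myelin, and of 23 genes of its synthesis and uptake 0 were higher and 14 were lower, none beyond 2-fold, with a median log2 difference of -0.32 (from -0.55 to -0.01 over the mice). Hmgcs1, the cytosolic synthase of an early step, ranged from 272.2 to 417 CPM in callosum and from 441.6 to 548.7 CPM in cortex (log2 -0.52 ± 0.1 SE, adjusted p = 0.001377). Callosal and cortical libraries did not overlap for Hmgcs1.

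Regulators of the oligodendrocyte lineage rose, and the stages of the lineage differed in size of difference. Of 10 lineage factors tested, 9 were higher, 4 beyond 2-fold (median log2 1.18). Sox10 ranged from 101.4 to 145.4 CPM in callosum, the highest of the 15 regions, and from 28.16 to 46.82 CPM in motor cortex (log2 1.71 ± 0.12 SE). Myrf, which drives myelin gene transcription, had log2 1.88 and St18 2.14, whereas Olig1 and Olig2, which are expressed from the precursor stage on, had 1.11 and 0.89. Zeb2 did not pass (log2 -0.14, adjusted p = 0.2219). In the list of precursors and newly formed oligodendrocytes, 9 of 14 were higher, 3 beyond 2-fold, with a median log2 of 0.36. The 3 were Enpp6 (35.1 to 49.12 against 3.044 to 9.252 CPM, log2 2.96 ± 0.19 SE), Cacng4 (log2 2.40) and Bcas1 (log2 2.12). Cacng4 carried the caudate putamen mark and was highest in that region, at 96.4 CPM against 59 CPM in callosum on the scale of the 15 regions. Enpp6 and Bcas1 mark new and early myelinating oligodendrocytes. Pdgfra, the growth factor receptor of precursors, ranged from 19.4 to 35.99 CPM in callosum and from 18.45 to 29.61 CPM in cortex, so the groups overlapped (log2 0.13 ± 0.08 SE, adjusted p = 0.2076). Cspg4, which encodes NG2, gave log2 0.19 (adjusted p = 0.1712), and Vcan 0.96 and Gpr17 0.34 were called higher. Gpr17 lost the call in PBS mice alone (log2 0.31, adjusted p = 0.09504).

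Astrocyte genes divided by kind. Of 20 pan-astrocyte genes, 8 were higher and 7 lower, 1 of them beyond 2-fold, and the median was 0.03. The water channel gene Aqp4 was higher (81.81 to 110.4 against 66.63 to 79.22 CPM, log2 0.41), the glutamate transporter gene Slc1a2 was lower (log2 -0.37), and Aldh1l1 gave 0.03 (adjusted p = 0.7567). The potassium channel gene Kcnj16 (log2 -1.57 ± 0.12 SE) and the connexin gene Gjb6 (log2 -1.08 ± 0.08 SE) were the lowest, and corpus callosum had the lowest Gjb6 level of the 15 regions. The list of fibrous and reactive astrocytes differed in another way: 11 of 16 were higher, 6 beyond 2-fold, and 1 lower (median log2 1.11). Gfap, the intermediate filament gene of fibrous and reactive astrocytes, ranged from 457.6 to 853.6 CPM in callosum (median 799.9) and from 96.35 to 159.7 CPM in cortex (6.03-fold, adjusted p = 4.226e-06). Thbs4, which encodes thrombospondin 4, was 14-fold higher (23.95 to 58.72 against 1.44 to 6.846 CPM) and highest of all regions in callosum, and it carried the SVZ mark. C4b, a complement component of reactive astrocytes and other glia, ranged from 158.3 to 252.8 against 12.68 to 31.27 CPM (log2 3.54), and Id4 (2.21) and the hyaluronan receptor gene Cd44 (2.18) also passed the 2-fold rule, while Vim (1.43) was called higher without it. No callosal library overlapped a cortical one for these 6 genes. On the scale of the 15 regions, Id4 averaged 473 CPM in caudate putamen and 447 CPM in SVZ, against 385 CPM in callosum. In the same order, C4b averaged 226 and 259 against 230 CPM, and Gfap 630 and 692 against 757 CPM. Vim averaged 33.7 and 74.9 against 61.8 CPM, Cd44 7.12 and 8.53 against 9.72 CPM, and Thbs4 4.5 and 32.7 against 46 CPM.

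Microglial genes were higher by a modest and even amount, and genes of activated microglia by more. Of 17 homeostatic genes, 16 were higher and none beyond 2-fold, and the median of 0.56 varied only from 0.50 to 0.64 over the mice. Cx3cr1, the fractalkine receptor, ranged from 75.81 to 103.2 CPM against 52.36 to 61.6 CPM (log2 0.63). Csf1r (0.49), P2ry12 (0.41) and Tmem119 (0.35) gave smaller values, and C1qb (1.02) and Aif1 (1.15) larger ones. Of these, Cx3cr1, Csf1r, P2ry12, Tmem119 and C1qb were highest of the 15 regions in caudate putamen. Cx3cr1 averaged 111 CPM there against 91.6 CPM in callosum, and Csf1r 154 against 128 CPM. Aif1 was highest in callosum. In the list of disease- and white-matter-associated microglia, 15 of 19 tested genes were higher and 8 beyond 2-fold (median log2 1.0). Lgals3, which encodes galectin 3, ranged from 3.718 to 17.1 CPM in callosum and from 0 to 0.7401 CPM in cortex (log2 4.84 ± 0.42 SE). Cst7, a protease inhibitor gene of activated microglia, ranged from 3.247 to 5.463 against 0.2057 to 1.029 CPM (log2 2.59), and Lpl, the lipoprotein lipase, gave 1.90. Cd9 (156.7 to 320.6 against 44.47 to 59.46 CPM, log2 2.14) was highest of the 15 regions in callosum; this tetraspanin is also expressed by oligodendrocytes. Apoe (log2 0.86) and Trem2 (log2 0.84) were higher without passing the 2-fold rule. Lpl and Trem2 were highest in caudate putamen, at 79.8 and 26.7 CPM against 52.7 and 21.8 CPM in callosum. Lgals3 averaged 5.28 CPM in caudate putamen against 9.87 CPM in callosum. It stood at 11.9 CPM in the libraries labelled choroid plexus and 10.3 CPM in SVZ, and was highest in cerebellum (17.1 CPM). Cst7 averaged 4.09 CPM in caudate putamen, 3.49 CPM in choroid plexus and 3.35 CPM in SVZ, against 4.51 CPM in callosum. Its highest region was medulla (7.4 CPM).

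Of 17 genes of MHC class I and the interferon response, 12 were higher, 1 beyond 2-fold, and 1 lower, with a median log2 of 0.67 that ran from 0.05 in PBS 84 to 1.03 in PBS 80. Bst2, an interferon-induced membrane protein, ranged from 4.781 to 48.22 CPM in callosum (median 9.867) and from 2.405 to 4.009 CPM in cortex (log2 2.14 ± 0.46 SE, adjusted p = 0.0024). Ifi27l2a ranged from 1.687 to 15.68 against 0 to 1.973 CPM, and its groups overlapped (log2 2.64, adjusted p = 0.0007896). H2-D1 was higher (log2 0.50), and B2m, the light chain of class I molecules, gave 0.18 (adjusted p = 0.25) with 3 mice of 6 higher. Of 14 genes of T and NK cells, 2 passed the filter, Cd4 and Ptprcap, and both were higher. Cd3e reached 0.594 CPM and Cd8a 0.831 CPM in callosum at most. Ptprcap, which encodes a protein associated with the CD45 phosphatase, ranged from 16.27 to 23.18 CPM against 12.27 to 16.17 CPM (log2 0.41, adjusted p = 0.00553), and lost the call in PBS mice alone (adjusted p = 0.2513). Cd4 ranged from 39.43 to 125.5 against 0.6172 to 1.534 CPM, carried the caudate putamen and SVZ marks and was highest in caudate putamen.

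Most neuronal genes were lower, and a few genes of deep cortical layers and striatum were higher. Of 22 genes of cortical excitatory neurons, 14 were lower, 12 beyond 2-fold (3.56% of all genes were), and 6 were higher, 2 beyond 2-fold (median log2 -1.38). Slc17a7, the vesicular glutamate transporter of cortical neurons, ranged from 78.85 to 297.6 CPM in callosum and from 589.6 to 1021 CPM in motor cortex (log2 -1.95 ± 0.23 SE, adjusted p = 5.663e-05). The transcription factor gene Neurod6 (log2 -1.83), Fezf2 (-1.68), Mef2c (-1.99) and the layer 4 gene Rorb (-1.43) were lower too. Neurod6 and Fezf2 carried the plexus mark. The largest falls of the list were in genes known from upper layers: Cux2 ranged from 5.665 to 8.999 CPM against 52.55 to 72.99 CPM (8.82-fold lower), Rasgrf2 gave log2 -3.28 and Bhlhe22 -3.37. The 6 genes that were higher were Foxp2, Bcl11b, Cplx3, Tle4, Ccn2 and Crym. Foxp2 (log2 2.75), Bcl11b (1.94) and Tle4 (1.21) are expressed in deep cortical layers and in striatal neurons, and all 3 had their highest level in caudate putamen, whose mark Foxp2 and Bcl11b carried. Crym, which encodes a thyroid hormone binding protein, carried all 3 marks and was highest in the libraries labelled choroid plexus (215 CPM, against 79.3 CPM in callosum). Its groups overlapped (log2 0.48, higher in 5 of 6 mice), and it lost the call in PBS mice alone (log2 0.25, adjusted p = 0.1542). Cplx3, a complexin gene of the deepest cortical layer, was instead highest in corpus callosum, where it ranged from 26.25 to 79.86 CPM against 9.726 to 21.46 CPM in motor cortex (log2 1.48 ± 0.21 SE, adjusted p = 0.000207). Its mean in caudate putamen was 7.4 CPM. Ccn2, a further gene of that layer, was called at log2 0.88 (adjusted p = 0.03818), with overlapping groups, and lost the call when AL 66 (adjusted p = 0.08389), AL 69 (0.08892) or PBS 76 (0.05588) was left out, and in PBS mice alone (0.3859).

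Of 17 genes of GABAergic neurons, 11 were lower, 7 beyond 2-fold, and 2 were higher (median log2 -0.90). Vip, a peptide of cortical interneurons, ranged from 4.538 to 17.15 CPM against 81.41 to 98.16 CPM (log2 -3.36 ± 0.23 SE), Cck gave -2.71 and Pvalb -2.11, with no overlap between the regions. Gad2 (log2 0.92) and the vesicular transporter gene Slc32a1 (1.03) were higher, and Gad1 gave 0.06 (adjusted p = 0.5201). These 3 genes are shared by cortical interneurons and the inhibitory neurons of the striatum.

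Synaptic and axonal transcripts were lower in most cases. Among 20 presynaptic genes 0 were higher and 19 lower, 4 beyond 2-fold (median log2 -0.99), and Cplx2 alone did not pass (log2 -0.09, adjusted p = 0.3382). Snap25, a core protein of vesicle fusion, ranged from 1857 to 3195 CPM in callosum and from 5200 to 6007 CPM in cortex (log2 -1.20 ± 0.09 SE). Syt1 gave -0.99, and Syp and Stx1a gave -2.04 and -2.05. Of 20 postsynaptic genes 14 were lower, 5 beyond 2-fold, and 2 higher (median log2 -0.50); Camk2a (-1.32), Nrgn (-0.86, with a caudate putamen mark), Shank1 (-2.17) and Dlgap1 (-1.48) were among the lower ones. Of 22 genes of the axon, node and paranode, 17 were lower, 5 beyond 2-fold, and 1 higher (median log2 -0.62). Nefh, the heavy neurofilament subunit of large axons, ranged from 24.83 to 41.06 against 100.5 to 128.2 CPM (log2 -1.82 ± 0.12 SE), and its callosal level was the lowest of the 15 regions. Stmn2 (-1.53), Nefl (-0.80) and Map1b (-0.58) were also lower. The member that was higher was Cntn2 (log2 0.69), which encodes a contactin of the juxtaparanode that oligodendrocytes also make.

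**Figure D4:**
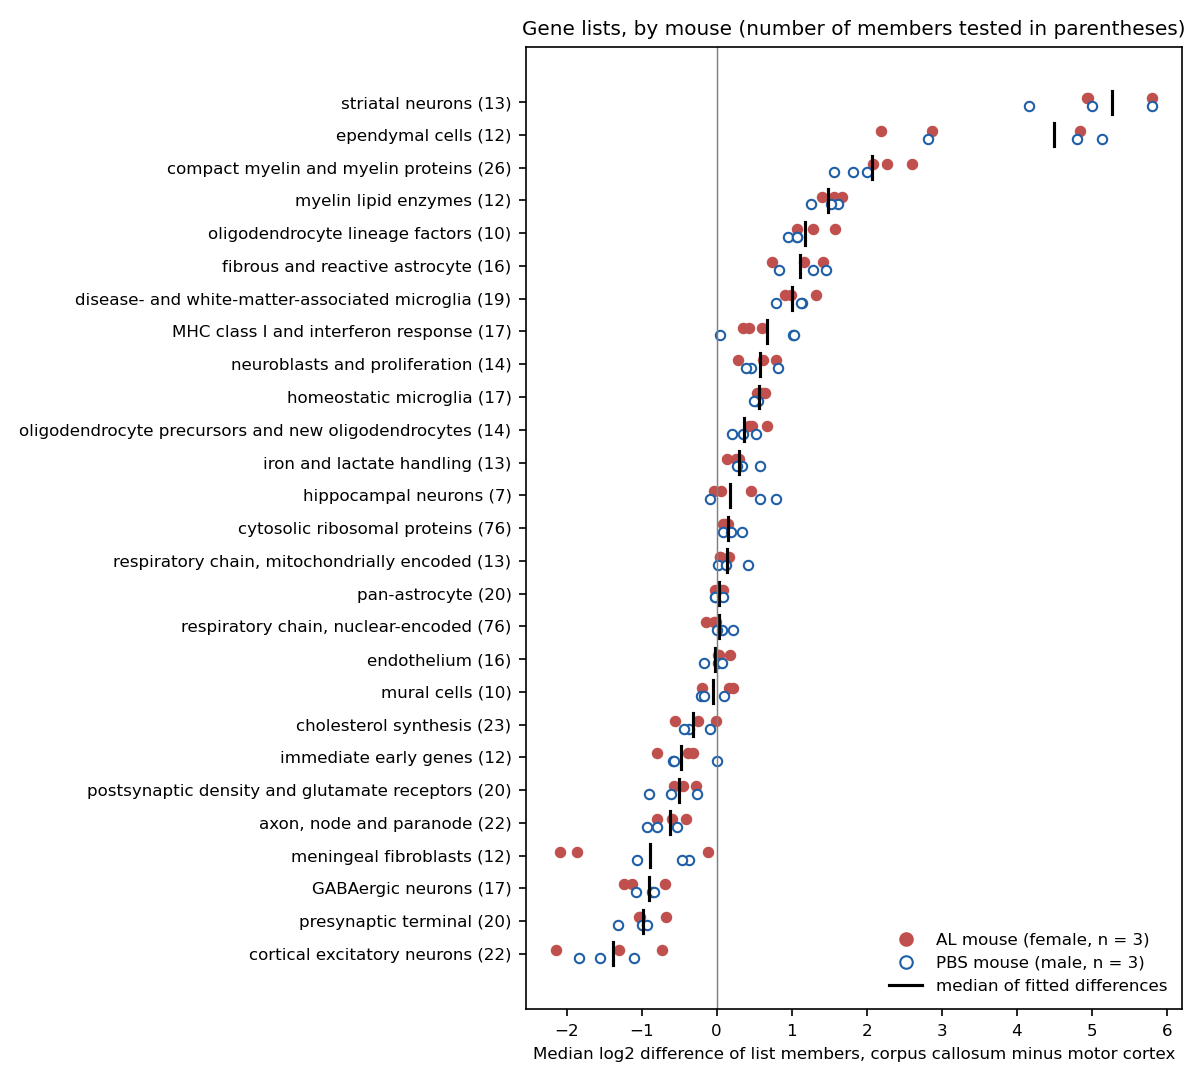
Median log2 difference (corpus callosum minus motor cortex) of the members of each gene list in each mouse (filled AL, open PBS), with the median of the fitted differences as a black bar; lists with fewer than 5 tested members, and the choroid plexus list, are left out. Myelin, oligodendrocyte, reactive astrocyte and microglial lists lie above 0 in all 6 mice, and excitatory, GABAergic and synaptic lists lie below 0 in all 6.

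Endothelial and mural cell lists had medians near 0, while most meningeal fibroblast genes were lower. Endothelial genes gave 6 higher and 2 lower of 16 (median log2 -0.02) and mural cell genes 2 higher and 1 lower of 10 (median -0.05). Of 12 meningeal fibroblast genes, 7 were lower, 4 beyond 2-fold, and 1 higher (median log2 -0.89), and the mouse medians ran from -2.09 to -0.11. Slc47a1, a transporter gene of the leptomeninges, was at or near 0 in callosum (at most 0.1188 CPM) and ranged from 4.626 to 12.85 CPM in motor cortex, at least 17.7-fold lower when the floor of 3 counts per library is used. Fmod (log2 -2.95) and Ptgds (-1.27) were lower too. Igf2, which plexus and meninges express, was the exception (log2 1.98 ± 0.66 SE, adjusted p = 0.02457), with 2.25 to 129 CPM in callosum and 4 of 6 mice higher, and it lost the call when any of AL 66, PBS 76, PBS 80 or PBS 84 was left out (adjusted p from 0.05829 to 0.09835) and in AL mice alone (0.6171). Of 13 genes of iron and lactate handling, 7 were higher, 2 beyond 2-fold, and 3 lower; ferritin heavy chain Fth1 reached 5099 to 8851 against 2266 to 2873 CPM (log2 1.30), while the transferrin receptor gene Tfrc was lower (log2 -0.97).

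Immediate early genes, which follow neuronal activity, were lower in 8 of 12 cases and higher in 1 (median log2 -0.47), with Fos at -1.12, Arc at -0.64 and Ier2 at -1.54. Arc did not pass without the replicate block (adjusted p = 0.06069). Among 14 tested genes of neuroblasts and proliferation 8 were higher, 5 beyond 2-fold, and 3 lower (median log2 0.58). Top2a, a gene of dividing cells, ranged from 1.968 to 4.35 CPM against 0 to 0.7425 CPM (log2 3.45), and Cd24a (2.62) and Sox11 (1.08) were higher, but the neuroblast marker Dcx was lower (11 to 12.9 against 22.2 to 28.31 CPM, log2 -1.03). Of 76 cytosolic ribosomal protein genes 39 were higher and 3 lower, none beyond 2-fold (median log2 0.16). Nuclear-encoded genes of the respiratory chain gave 12 higher and 11 lower of 76 (median 0.03), and mitochondrially encoded ones 6 higher and 1 lower of 13 (median 0.14).

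The largest single differences without a plexus mark were led by genes of striatum and ependyma. They included Gpx6 (at least 39.7-fold higher against a motor cortex at the floor), Slc10a4 (at least 38.4-fold), the cilium genes Ccdc153 (at least 30.3-fold) and Tmem212 (at least 29-fold) and the transcription factor gene Isl1 (at least 25.7-fold). Drd2 ranged from 142.2 to 419.2 CPM in callosum and from 0.4115 to 2.035 CPM in cortex (log2 7.96 ± 0.13 SE), and Sh3rf2 (7.93), Syndig1l (7.77), Ano2 (7.73), Serpina9 (7.73) and the receptor gene Gpr6 (6.79) followed. Of these 11, 6 were highest in caudate putamen, namely Gpx6, Drd2, Sh3rf2, Syndig1l, Serpina9 and Gpr6. Ccdc153, Tmem212 and Ano2 were highest in SVZ, Isl1 in hypothalamus and Slc10a4 in pons. Each of the 11 carried a caudate putamen or an SVZ mark, or both. The 12 lowest were Adcyap1, which encodes the peptide PACAP (0.1812 to 1.687 against 22.94 to 32.3 CPM, log2 -5.84 ± 0.27 SE), Neurod1 (-5.28), Mylk3 (-5.00), Gucy2g (-4.58), Tafa1 (-4.47), the metabotropic glutamate receptor gene Grm2 (-4.13), Adam33 (-4.02), Plcxd2 (-3.61), Cbln4 (-3.48), Tmem200a (-3.46), the synaptic zinc transporter gene Slc30a3 (-3.39) and Bhlhe22 (-3.37). Callosal and cortical libraries did not overlap for any of these 23 genes. The genes were picked for large differences with the same sign in 6 mice, which favours this, so it is not a separate result.

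Genes were then placed among the 15 brain regions by their mean control level. Corpus callosum was the highest region for 128 of the 676 genes higher beyond 2-fold (18.9%), against 520 of all tested genes (3.94%). The 676 were picked for a callosal level above motor cortex, which favours a first place, so the gap between these shares is not a result. Callosum was among the first 3 regions for 536 of the 676. Caudate putamen was highest for 178 of them, SVZ for 104 and medulla for 103. Of the 470 lower genes, motor cortex was the highest region for 85, visual cortex for 80 and entorhinal cortex for 59, and callosum was the lowest of the 15 for 39. Apart from callosum in first place, shares over all tested genes were not counted, so these numbers only describe the called genes. Without a plexus, caudate putamen or SVZ mark, callosum came first for 111 higher genes. The 12 callosum-first genes with the largest difference among those without a plexus mark, with at least 10 CPM and the same sign in 6 mice, picked after their values had been seen, were Spint1, Thbs4, Sulf1, Galm, Slc37a2, Shisa2, Cyp2j12, Tmem98, D7Ertd443e, Cd82, Arsg and Elovl7. Of these, Spint1 carried the caudate putamen and SVZ marks and Thbs4 the SVZ mark. Spint1, a membrane protease inhibitor, ranged from 16.98 to 28.43 CPM against 0.8229 to 2.192 CPM (17.3-fold, log2 4.11 ± 0.23 SE). Its means in SVZ and caudate putamen, 18.3 and 18 CPM, were close to its callosal mean of 22.5 CPM. Sulf1, a heparan sulfatase, varied more (22.5 to 164.5 against 3.935 to 12.4 CPM, log2 3.08). Galm (1.406 to 22.57 CPM) and Slc37a2 (3.375 to 50.24 CPM) varied so widely in callosum that they overlapped with cortex. In the libraries labelled choroid plexus and SVZ, Sulf1 averaged 76.1 and 71.2 CPM, against 85.9 CPM in callosum. Galm averaged 10.8 and 9.82 against 11.8 CPM, and Slc37a2 17.8 and 17.9 against 24.5 CPM. The part of plexus or SVZ RNA in these differences was not tested. Tmem98, a membrane protein that binds the myelin regulator MYRF, gave log2 2.54, and the tetraspanin gene Cd82 and the sulfatase gene Arsg gave 2.49 and 2.47 without overlap.

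**Figure D5:**
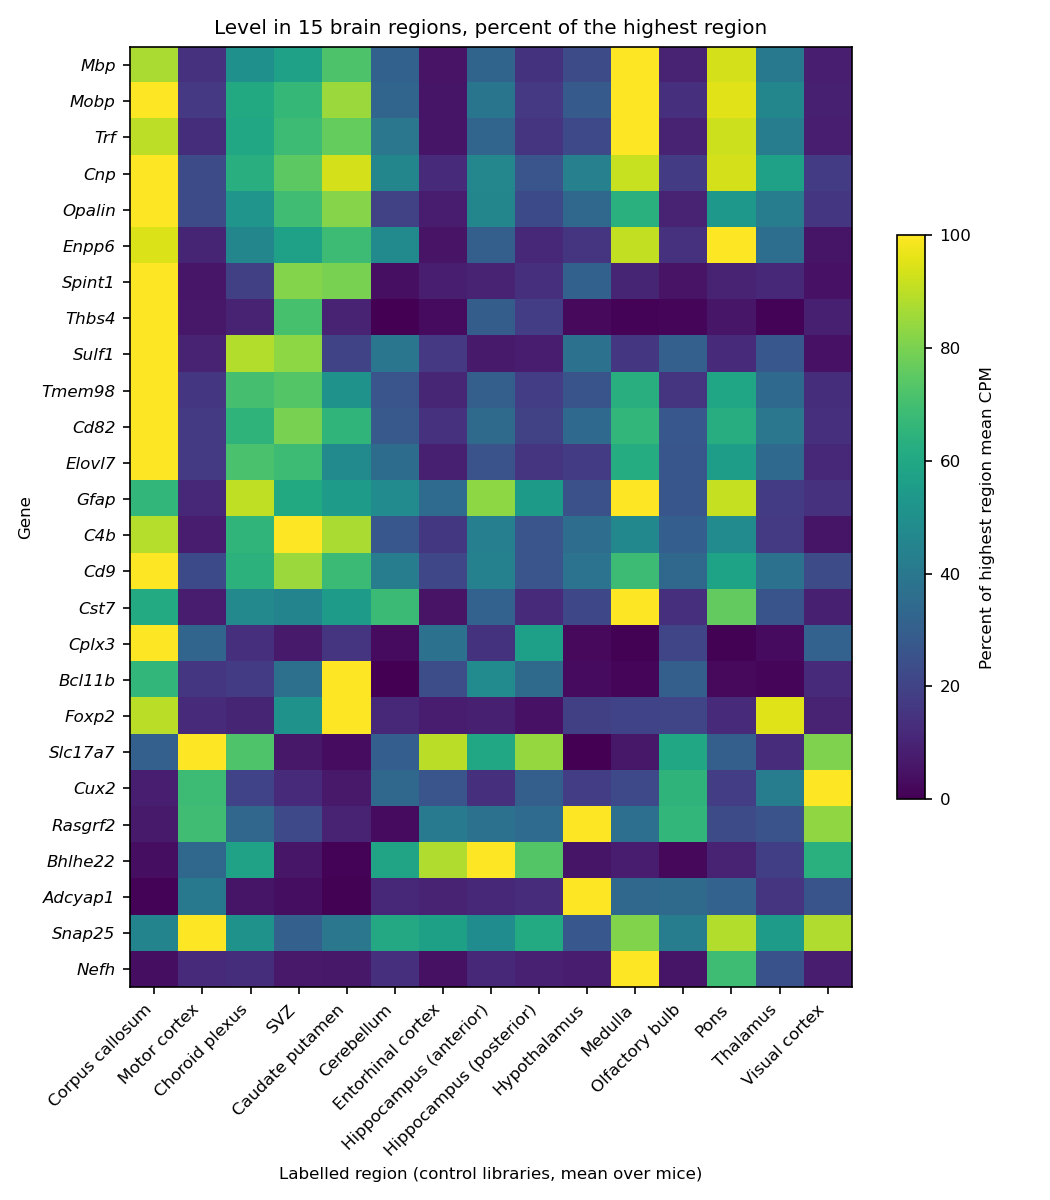
Mean control level of 26 named genes in 15 brain regions, in percent of the region with the highest mean (colour). Myelin genes are high in callosum, medulla, pons and caudate putamen. Spint1, Thbs4 and Cplx3 peak in callosum, and upper-layer genes such as Cux2 are low there.

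Genes enriched in the libraries labelled choroid plexus were marked as possible carry-over by the rule given above. The mark fell on 61 tested genes (0.462%), of which 38 were higher in callosum and 19 lower. It covered 28 of the 676 genes higher beyond 2-fold (4.14%) and 15 of the 470 lower ones. The 6 with the largest difference were Ttr (log2 15.00), Six3 (at least 92-fold higher), Lrrc10b (7.44), Clic6 (7.09), the adenosine receptor gene Adora2a (6.74) and Spag16 (6.54). The mark does not separate plexus from its neighbours, because Six3, Lrrc10b and Adora2a were highest in caudate putamen and Spag16 in SVZ, and 25 of the 28 also carried an SVZ mark made in the same way. Only 6 of the 22 plexus list genes passed the filter, all higher beyond 2-fold, while without the filter all 22 were called higher. The 6 were Ttr, Clic6, Kcnj13 (1.406 to 446.3 against 1.85 to 5.346 CPM), Trpv4, Enpp2 and Col8a1, the last of which lost its call in AL mice alone (log2 1.69, adjusted p = 0.09998). In AL 63 the median difference of these 6 was -0.18, against 2.36 to 6.93 in the other mice. Without AL 63 the number of marked genes among the higher calls rose from 28 to 54. Enpp2, the autotaxin gene that plexus and oligodendrocytes both express, ranged from 626.3 to 10840 CPM in callosum and from 305.9 to 343.9 CPM in cortex, so that its lowest callosal library still exceeded the cortex.

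The libraries labelled choroid plexus were themselves mixed, which limits the mark. Their Ttr ranged from 619 to 9860 CPM, below the 18300 CPM of callosum in PBS 76 on the same scale, and they held 2790 to 13000 CPM of Mbp and 317 to 827 CPM of Slc17a7. For this reason the planned estimate of a carried share, in which the plexus library of the same mouse is scaled to the callosal plexus genes, could not be read: the median callosal level of 20 plexus genes stood at 1568% of the plexus library in AL 66 and 9.624% in AL 63, and the median estimated share over all tested genes was 312%. The per-mouse differences are given instead, as a description. The 676 genes passed the low-count filter and were called with AL 63 among the libraries. A log2 difference over 1 for most of them in each mouse is favoured by that choice and is not a result. The same holds for the 28 marked genes. In AL 63, whose callosal Ttr was 34.6 CPM, 588 of the 676 higher genes (87%) had a log2 difference over 1, among them 17 of the 28 marked genes. In the other mice between 618 (91.4%) and 670 (99.1%) did so, with 25 to 28 of the marked genes.

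Marks made in the same way for caudate putamen and SVZ, added after the values had been seen, covered more of the higher genes. The caudate putamen mark fell on 142 tested genes (1.08%) and on 111 of the 676 (16.4%), and the SVZ mark on 144 (1.09%) and 116 (17.2%). No gene lower beyond 2-fold carried either. In AL 63, 109 of the 111 caudate putamen marked genes had a log2 difference over 1, which calls made with AL 63 included also favour. All 13 striatal genes tested were higher beyond 2-fold (median log2 5.27), with caudate putamen first and callosum second of the 15 regions for each, and all 13 carried both the caudate putamen and the SVZ mark. Ppp1r1b, which encodes DARPP-32, ranged from 1141 to 2528 CPM against 54.11 to 81.44 CPM (log2 4.64), Penk, the enkephalin precursor, gave 4.97 and Drd1 gave 4.17. All 12 ependymal genes tested were higher, 11 beyond 2-fold (median log2 4.49, or 4.32 with the 3 genes at the floor set to their bound), 10 with the SVZ mark, and Foxj1, the regulator of motile cilia, ranged from 8.999 to 37.41 against 0 to 1.665 CPM. None of the 3 marks was on 492 of the 676 (72.8%), the 25 myelin genes among them.

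The difference between the regions was then compared between the 3 AL females and the 3 PBS males. With edgeR's interaction test 0 of 13199 genes passed an adjusted p of 0.05, and 713 had an unadjusted p under 0.05, with a smallest adjusted p of 0.2696. DESeq2 called 3 genes, Xist, Tsix and Syt6. The first pair are transcripts of the X inactivation centre, which differ by sex, and with them left out the smallest adjusted p of edgeR was 0.8258. Across all 13199 genes the mean differences of AL and PBS mice had Pearson's r = 0.93 and Spearman's rho = 0.906, given as a description since genes are not independent. The median of the myelin list was 2.31 in AL and 1.83 in PBS mice, and the plexus list differed most (2.54 and 5.71).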

How the data were processed

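The authors deposited raw read counts, whole numbers that were not normalised, for 21076 genes in 1 table. Trim Galore 0.3.7, STAR 2.5.3a, DESeq2 and the build GRCm38 are named in the submitters' processing notes without role or order, and the counting program and annotation are not given in the sources used here. Per the labels' protocols, RNA was isolated with RNeasy, cDNA was made with Smart-Seq2, and libraries were made with Nextera XT and are unstranded, with no molecular identifiers named. Reads of overlapping or antisense genes and of near-identical copies can therefore be misassigned.

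Genes were kept by filterByExpr (minimum count 10, minimum total 15) and scaled by TMM in edgeR 4.0.16 (R 4.3.3). A quasi-likelihood fit with the mouse as a block and the region as a term was tested over 13199 genes, and glmTreat tested a fold of 2. P-values were adjusted by Benjamini-Hochberg. CPM and log2 differences were computed here. Differences per mouse used a prior count of 2. A gene with 3 counts or fewer in each library of a group was at the floor there. The procedure was tested on simulated data. Depth limits low genes: at 3.6 M counts, 3 counts are under 1 CPM, and intervals were not given for single libraries. Replicates are separate animals by their mouse numbers. The lowest chi-square per degree of freedom among 18 replicate pairs was 2.11, so no library was counted as a duplicate.

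The mouse number marks the same animal, and pairs the libraries. As a check, deviations from the group means correlated at 0.184 on average within a mouse (0.00752 to 0.4) and -0.0883 between mice, and 5 of 6 callosal libraries correlated best with their own cortex.

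The members and the gene lists were chosen with earlier results of these data known. Genes were named by a rule: the 12 highest and 12 lowest differences beyond 2-fold with the same sign in 6 mice, at least 10 CPM and no plexus mark; the 6 marked genes with the largest difference; and per list the 2 most abundant members and the 2 with the largest difference. Some genes that these rules give are not reported here, and other list members are named with their values. Regions were ranked over 112 control libraries of 15 regions. Promoter windows came from the RefSeq table of GRCm38.p6, and bases next to the start were left out because exons of other transcripts reach there. Alternatives were DESeq2 1.42.0, other scalings, no filter, no block, single cohorts, other mark thresholds and leaving out each mouse.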

Additional observations from a re-analysis of the deposited data

Results flagged for a closer look

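In 192 groups of per-mouse or per-library values, 5 had a library far from the others by Dixon's ratio, where chance flags about 1 in 20 groups, or 9.6. The log2 difference of Vcan was 1.41 in AL 63 and 0.77 to 0.98 in the other 5 mice. Slc10a4 was 3.98 in PBS 76 and 5.88 to 6.43 in the others. Fos, an immediate early gene, was -0.39 in PBS 84 and -1.45 to -1.08 elsewhere. Among callosal totals, AL 69 stood at 18.1 M and the remaining mice between 3.6 and 8.36 M. The median difference of the mitochondrially encoded respiratory genes was 0.42 in PBS 80 and 0.02 to 0.16 in the other mice.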

How the results depend on the processing

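The 8213 calls and the 1146 beyond 2-fold stayed within 1.5 times under the alternatives run: 6202 (PBS mice only) to 9008 (no filter), and 833 (DESeq2) to 1603 (no filter). Leaving out each mouse gave 7418 to 8038 and 1019 to 1261. Without the replicate block, which gives up the pairing by mouse, they were 7749 and 1108, and among the genes named Arc alone lost its call there (log2 -0.65). Upper-quartile scaling moved the split to 4512 higher and 3776 lower, and shifted the median of all genes by 0.046, the largest shift. Between 833 (DESeq2) and 1138 of the 1146 genes were called again beyond 2-fold. The number of plexus marked genes among the higher calls, 28, depended most on the settings: 44 and 11 with the mark at 3 and 10 times, 56 without the filter, 59 in PBS mice only, and 24 to 54 when each mouse was left out, with 54 without AL 63. The test of the difference between AL and PBS mice gave 0 calls in edgeR, also when each mouse was left out (0 to 0), and 3 in DESeq2.

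Of 2367 values of 158 named genes under alternatives, 2346 kept direction and call and 14 lost the call, all of them of Arc, Igf2, Col8a1, Gpr17, Ccn2, Crym or Ptprcap. Direction changed only for genes that were not called: Aldh1l1 (-0.016 in AL mice, -0.008 without AL 66, and -0.031 without PBS 76 to 0.1 without AL 69), B2m (-0.019 in AL mice), Cplx2 (0.049 in AL mice, 0.01 in 14 libraries without the block) and Gad1 (-0.028 in PBS mice). The cause of these changes was not tested. Depth limits genes under about 1 CPM in the smallest libraries.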
